A study of Saccharomyces cerevisiae with 48 samples.

Results

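The 100 genes described here are those whose newly made RNA was lowest, relative to DMSO, after auxin (IAA) was used to deplete the tagged BET proteins Bdf1 and Bdf2 from cells that also carried a BDF1 copy with both bromodomains mutated (strain RDY237). They were selected on the 6 RDY237 libraries alone. Labelled RNA was counted as T>C reads, those with 2 or more T-to-C conversions, and these were divided in each library by its fission yeast spike-in reads. Among 2950 genes with at least 150 T>C reads summed over the RDY237 DMSO libraries, of 6465 counted, the 100 with the lowest ratio of mean IAA to mean DMSO level were taken. The RDY237 values are therefore a description of the choice. The other 7 strains and their libraries were not used to choose the genes.

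BET proteins carry tandem bromodomains, which bind acetylated lysines of histone tails, and a conserved extra-terminal (ET) domain that binds other proteins. In budding yeast Bdf1 and Bdf2 are the BET proteins, and Bdf1 is known as a partner of TFIID, the complex that loads the TATA-binding protein at promoters. Bdf1 has a BD1 and a BD2 bromodomain, and an auxin-inducible degron tag lets indole-3-acetic acid (IAA) trigger the destruction of a tagged protein through the plant F-box protein OsTIR1.

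SLAM-seq was run on Saccharomyces cerevisiae cultures treated for 3 h with 1 mM IAA or with its solvent DMSO, then given 5 mM 4-thiouracil. All 8 strains carried pGPD1-OsTIR1:HIS3, BDF2-3xV5-mAID::KanMX and BDF1-3xV5-mAID::URA3, so the endogenous Bdf1 and Bdf2 carried the degron in every strain, RDY234 included. RDY237 also carried a BDF1 copy with BD1 and BD2 mutated (BD1/2), RDY251 a copy with 4 mutated ET residues, ET(4), RDY249 a copy with the ET changes D571A and D573A, ET(2), RDY247 a copy without the B and BID regions, RDY236 a BD2 mutant, RDY235 a BD1 mutant and RDY234 the unmodified BDF1, each integrated at TRP1, whereas RDY73 (Bdf1/2-AID) carried no further copy. Each strain had 3 IAA and 3 DMSO libraries, lettered A to C, and whether a strain was more than 1 clone was not given in the sources used here.

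Depth per library ran from 3301563 to 10699839 reads on S. cerevisiae genes over the 48 libraries, with 42821 to 1163027 T>C reads, and from 336128 to 1242931 reads on S. pombe genes. The 100 genes together had 263 to 16994 T>C reads in a library. Levels below are reads per 1000000 S. pombe reads (normalised reads). In total reads STE3, the pheromone receptor gene of MATalpha cells, had 312.4 to 3053, against 4.05 to 54.6 for STE2, that of MATa cells. Not all MATa genes were low throughout. MFA1 had 341.1, 437.6 and 430.2 in RDY251 under IAA, where STE3 had 312.4, 330 and 449.1. Under DMSO MFA1 already had 270.7, 260.4 and 280.5 in RDY251, against DMSO means of 40.4 to 75.5 in the other strains. In RDY73 the means of MFA1, MFA2 and AGA2 rose under IAA, from 64.8 to 294.3, 36.45 to 296.9 and 5.035 to 58.95. The means of BAR1 and STE6 fell there, from 17.7 to 12.7 and 63.35 to 15.1. TRP1, the marker of the integrated copies, stood at 16.1 to 51.4 in the RDY73 libraries and at 61.3 to 513.9 in those of the other strains. The library numbers fell into 2 series, with RDY73, RDY247 and RDY249 in the later. Comparisons of a strain's own IAA and DMSO libraries lie within a series, whereas for these 3 strains against RDY234 series and strain cannot be told apart.

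The promoters of 4 members of the protein folding machinery, picked for that role after the members were seen, are shown first. HSP82 and BTN2 gave by far the most reads of the set and SSA4 had the third lowest ratio. SSA4 encodes a stress-induced Hsp70, HSP82 an Hsp90, and BTN2 and CUR1 related factors that sort misfolded proteins. Each sequence is the 300 bases before the start codon in build R64, 5′ to 3′ on the coding strand, read from V:364289-364588 (SSA4, plus strand), XVI:98626-98925 (HSP82, minus strand), VII:772154-772453 (BTN2, plus strand) and XVI:842962-843261 (CUR1, plus strand). Capitals mark each match to TTCNNGAA, the core of the heat shock element, a motif added after the members were seen.
SSA4: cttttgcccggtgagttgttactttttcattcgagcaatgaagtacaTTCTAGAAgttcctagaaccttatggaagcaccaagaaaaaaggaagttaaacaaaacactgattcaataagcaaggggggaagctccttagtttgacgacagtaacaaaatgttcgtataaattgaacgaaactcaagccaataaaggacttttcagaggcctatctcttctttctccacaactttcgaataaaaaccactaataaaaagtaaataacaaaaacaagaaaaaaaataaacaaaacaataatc
HSP82: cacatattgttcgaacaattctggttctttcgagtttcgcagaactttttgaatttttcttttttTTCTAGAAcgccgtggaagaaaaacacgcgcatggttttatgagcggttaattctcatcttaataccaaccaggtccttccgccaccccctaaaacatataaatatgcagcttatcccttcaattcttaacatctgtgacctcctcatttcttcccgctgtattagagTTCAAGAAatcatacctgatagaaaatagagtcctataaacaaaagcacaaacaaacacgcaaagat
BTN2: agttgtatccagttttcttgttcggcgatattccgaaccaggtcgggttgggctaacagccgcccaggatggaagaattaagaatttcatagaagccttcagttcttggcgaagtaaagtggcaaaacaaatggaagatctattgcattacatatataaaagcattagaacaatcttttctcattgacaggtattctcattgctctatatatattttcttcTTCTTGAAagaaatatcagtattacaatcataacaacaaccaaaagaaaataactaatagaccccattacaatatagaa
CUR1: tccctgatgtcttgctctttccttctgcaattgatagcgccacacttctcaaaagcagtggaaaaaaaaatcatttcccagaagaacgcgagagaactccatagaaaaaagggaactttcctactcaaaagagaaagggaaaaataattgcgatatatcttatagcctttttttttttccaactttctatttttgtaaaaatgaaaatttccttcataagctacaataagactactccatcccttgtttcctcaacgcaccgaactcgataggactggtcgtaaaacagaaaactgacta
The core was found 1 time before SSA4, 253 bases upstream of the start codon, 2 times before HSP82, at 235 and 67 bases, and 1 time before BTN2, at 79 bases. It was not found in the CUR1 window. Nor was it found before PUS9, next after CUR1 in reads, or before RRG1 and SEG2, both lower in ratio than SSA4. These 3 promoters are not shown. Over the whole set 16 of 100 promoters held it, against 13.1% of 6000 promoters of the same length and 14.1% of those of eligible genes.

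In RDY237 the level of a member under IAA was 0.144 to 0.224 of its level under DMSO, with a median of 0.211, against a median of 0.338 over the eligible genes. As a fold, members were 4.47 to 6.94 times lower with a median of 4.74, and the median eligible gene was 2.96 times lower. All 100 had every IAA library below every DMSO library, a pattern that held for 98.2% of the eligible genes, so the non-overlap is no mark of the set. The boundary was close. RKR1 at 0.2236 and SPC105 at 0.2233 were the last genes inside, with CGR1 and LOT5 at 0.2231 and NPR3 at 0.2230, and HOS3 at 0.2242, TCD2 at 0.2243, LSM7 at 0.2249, YML082W at 0.2252 and MNE1 at 0.2255 were the first outside.

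The set was rich in genes with few reads. The summed T>C count in RDY237 DMSO had a median of 207 for members and 320 for eligible genes, and 44 members had under 200 reads, against 21.5% of the eligible genes. Under IAA the median member had 53 reads over the 3 libraries and the lowest 31. Only 4 members had over 1000 reads in DMSO, HSP82 with 8346, BTN2 with 6119, CUR1 with 1475 and PUS9 with 1063. Membership rests on the read minimum as well as on the ratio. With a minimum of 300 reads in place of 150, the 81 members with under 300 reads were not eligible. The other 19 of the 100 then stayed by construction, so that count is no measure of how stable the ranking is.

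The lowest ratio, 0.1441, belonged to RRG1 (IV:580687-582034, plus strand), which is needed for the 5′ processing of mitochondrial tRNAs. RRG1 had 31.8, 8.76 and 3.29 normalised T>C reads in the RDY237 IAA libraries A, B and C, against 132.4, 102.9 and 69.2 under DMSO. Its interval shares bases with RPS13, a highly expressed ribosomal protein gene, so reads in the shared stretch cannot be assigned with certainty. SEG2 (XI:238935-242583, minus strand), a component of eisosomes, the furrows of the plasma membrane, had 22.1, 14.6 and 8.22 under IAA, against 95.4, 107.8 and 97.4 under DMSO. SSA4 (V:364589-366767, plus strand) had 41.5, 16.1 and 32.9 under IAA, against 188.9, 197.7 and 196.9 under DMSO. In each of the 3 genes the highest IAA library lay below the lowest DMSO library, and IAA replicate A was the highest.

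IMD2 (VIII:554396-556217, plus strand) encodes IMP dehydrogenase, the enzyme that commits IMP to guanine nucleotides, and is known for regulated start-site choice at its promoter. It had 29.1, 14.6 and 8.22 normalised T>C reads in RDY237 under IAA, against 87.6, 116.0 and 114.7 under DMSO. HO (IV:46021-48031, minus strand), the endonuclease that starts mating-type switching, had 48.4, 20.4 and 23.0 under IAA, against 249.2, 161.7 and 149.3 under DMSO. SYC1, a subunit of the cleavage and polyadenylation factor, had 23.5, 19.0 and 16.4 under IAA, against 136.3, 119.3 and 103.9 under DMSO. The others of the 10 lowest were TAN1, needed for tRNA acetylation, HBS1, a GTPase that rescues stalled ribosomes, EXO1, a DNA exonuclease, and MRPL44, a mitochondrial ribosomal protein. Their ratios lay between 0.1641 and 0.1645.

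The members with the most reads give the RDY237 levels with the least counting error. HSP82 (XVI:96246-98625, minus strand) had 1315, 868.4 and 1090 normalised T>C reads under IAA, against 5175, 5419 and 5130 under DMSO. BTN2 (VII:772454-773936, plus strand) had 1087, 557.5 and 687.3 under IAA, against 3805, 4092 and 3592 under DMSO. PUS9, a tRNA pseudouridine synthase, had 177.2, 105.1 and 82.2 under IAA, against 737.9, 695.97 and 558.2 under DMSO. The 5 most abundant members, CGR1 (ribosome biogenesis) as the fifth, had ratios of 0.1830 to 0.2231, inside the range of the set. Within RDY237 IAA, replicate A gave the highest level for 71 of the 100 genes. The median member stood at 25.1% of its DMSO mean in replicate A, at 16.6% in B and at 19.1% in C, and other eligible genes at 38.0%, 29.6% and 35.0%.

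**Figure D1:**
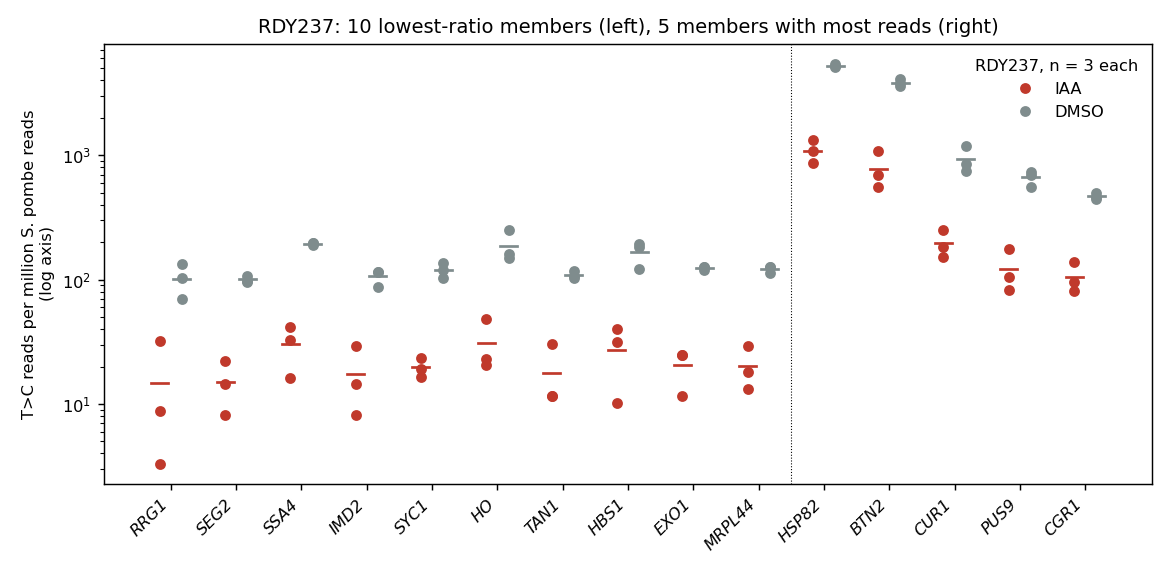
T>C reads per 1000000 S. pombe reads (vertical log axis) of the 10 members with the lowest ratio and the 5 members with most reads in the RDY237 IAA and DMSO libraries. Points are single libraries and bars are means of 3 libraries. In all 15 genes the IAA points lie below the DMSO points, from RRG1 at 3.29 to 31.8 up to HSP82 at 868.4 to 1315.

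In RDY73, RDY251, RDY249 and RDY247, which the rule did not use, the newly made RNA of the median member was lower under IAA by more than that of the median gene. The edgeR quasi-likelihood test on spike-in scaled T>C reads of 5118 genes, in which a gene counts as lowered at an adjusted p under 0.05 and at least 2-fold, called 100 of 100 members lowered in RDY73, 100 in RDY251, 100 in RDY249 and 99 in RDY247. The shares of all tested genes called were 99.9% in RDY73, 99.1% in RDY251, 94.5% in RDY249 and 76.5% in RDY247, so the counts lie close to the background in all but RDY247. The median log2 change of the members was −6.44 in RDY73, −4.13 in RDY251, −2.13 in RDY249 and −1.73 in RDY247, against −5.57, −3.48, −1.81 and −1.30 over all tested genes in the same strains. In RDY237, whose libraries chose the genes, the medians were −2.28 for the members and −1.61 for all genes. The spike-in was mixed in by optical density, so fewer intact cells and less RNA per cell cannot be told apart in these bulk cultures.

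With each gene set against the other eligible genes, 92 members lay below the eligible median in RDY251 and in RDY247, 89 in RDY249 and 87 in RDY73. The lowest 10% of the eligible genes held 53 members in RDY247, 47 in RDY251, 41 in RDY249 and 36 in RDY73. Since the set is richer in genes with few reads, the other eligible genes with under 300 T>C reads in RDY237 DMSO are a closer background. In T>C reads these had a median log2 change of −5.67 in RDY73, −3.55 in RDY251, −1.81 in RDY249 and −1.30 in RDY247, closer to that of all genes than to that of the members.

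The exception in RDY247 was CQD2, which takes part in the distribution of coenzyme Q. It had 41.2, 47.6 and 46.4 normalised T>C reads under IAA, against 64.03, 75.5 and 69.3 under DMSO, a log2 change of −0.70 ± 0.31 (SE, edgeR adjusted p = 0.0274) that misses 2-fold. The IAA and DMSO libraries did not overlap for any of the 100 members in RDY73, RDY251, RDY249 and RDY247, and among other eligible genes for 100%, 100%, 97.6% and 92.8%.

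The single bromodomain mutants gave smaller changes in these genes. In the BD2 mutant RDY236 9 members were called lowered, against 5.2% of all genes and 2.41% of other eligible genes with under 300 reads. The median log2 change was −0.72 for members and −0.58 for all genes. The 9 were SAM1, a synthase of S-adenosylmethionine, at −1.19, IMD2 at −1.18, SEG2 at −1.07, RRG1 at −1.06, the exonuclease gene RNH70 at −1.05, the importin gene NMD5 at −1.04, MMF1 at −1.03, MCO12 at −1.01 and CAL4 at −1.002. All 9 lay at the edge of the 2-fold limit, and 80 members had an adjusted p under 0.05 with a decrease of any size, as did 53.4% of all genes. DESeq2 called 10. The count was 5 without DMSO replicate B, 4 without IAA replicate A and 20 without IAA replicate C. Of the 9 calls, 0 were kept under all 13 alternative settings counted.

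SEG2 had 51.9, 64.7 and 52.9 normalised T>C reads in RDY236 under IAA, against 110.7, 113.6 and 134.2 under DMSO (log2 −1.07 ± 0.27 SE, edgeR adjusted p = 0.00223). SAM1 had 191.4, 110.1 and 195.7 under IAA, against 348.5, 484.1 and 327.0 under DMSO (log2 −1.19 ± 0.24 SE, edgeR adjusted p = 0.000377). For both genes the groups did not overlap, as was so for 84 of the 100 members and 74.3% of other eligible genes in RDY236. DMSO replicate B, which gave the 484.1 of SAM1, was the RDY236 library furthest from its replicates. The chi-square of its T>C counts per degree of freedom was 8.98 against A and 10.2 against C. For A with C it was 1.8, and 10.2 was the highest of all 48 replicate pairs.

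In the BD1 mutant RDY235 edgeR called 0 members lowered, and 0% of all genes, and DESeq2 called 0. At an unadjusted edgeR p under 0.05, 21 members were lower, against 4.85% of all genes. The median was −0.31 for members and −0.18 for all genes, with 78 members below the eligible median. With unmodified BDF1 in RDY234 edgeR called 0 members and 0% of all genes, and DESeq2 called 0. In that strain 1 member was lower at an unadjusted edgeR p under 0.05, against 0.684% of all genes. The medians there were −0.11 for members and −0.04 for all genes. The IAA libraries lay wholly below the DMSO libraries for 29 members in RDY235 and 13 in RDY234, and for 16.5% and 5.75% of other eligible genes.

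**Figure D2:**
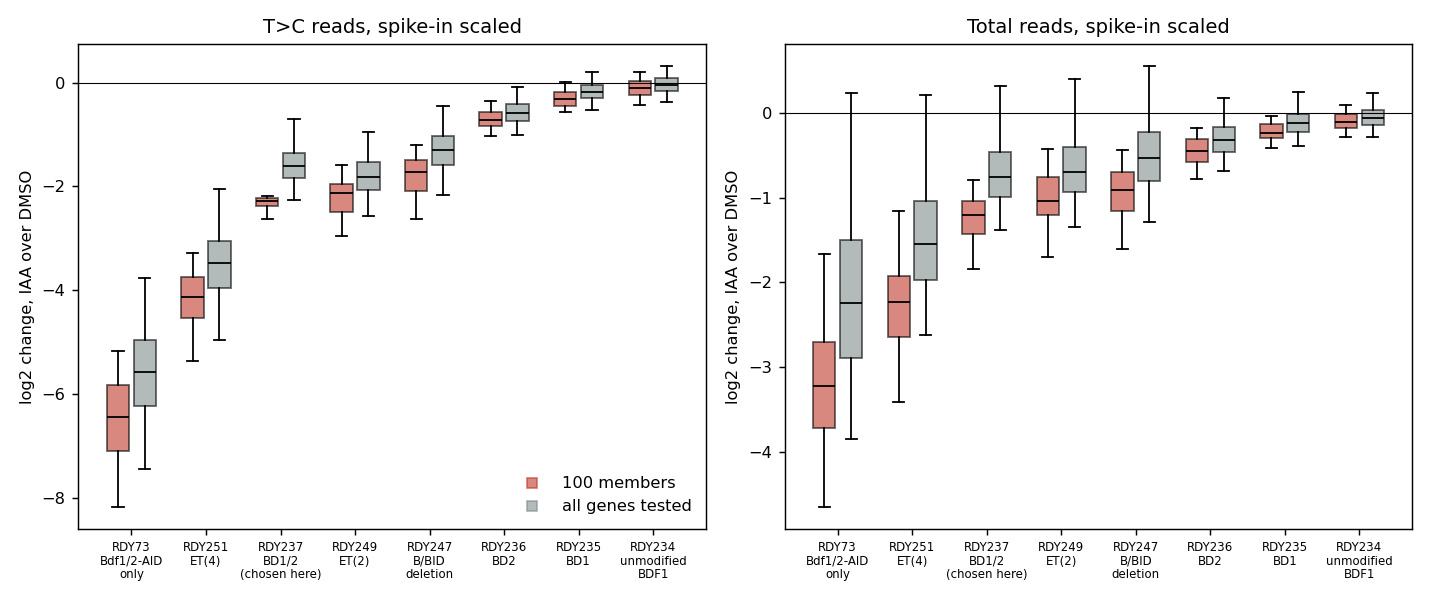
Log2 change between IAA and DMSO (vertical axes) in T>C reads (left) and total reads (right) for the 100 members and for all genes tested in each strain. Boxes span the middle 50% of genes with the median as a line, and whiskers end at the 5th and 95th percentiles. The member median lies below that of all genes in each strain and readout, by the widest margin in total reads of RDY73 (−3.22 against −2.25), and RDY237 is the strain the genes were chosen in.

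The difference between responses was then tested itself, as the IAA change of a strain minus that of RDY234. All 100 members had a lower response in RDY73 (99.9% of all genes called), 100 in RDY249 (92.8%), 100 in RDY251 (99%) and 95 in RDY247 (69.8%). The 5 members without a call in RDY247 were BUD23, IOC3, CQD2, YNL050C and GAC1. For RDY236 against RDY234 edgeR called 0 members and 0% of all genes, and DESeq2 called 0. Lower at an unadjusted edgeR p under 0.05 were 40 members and 28.35% of all genes. The medians were −0.58 for members and −0.54 for all genes. For RDY235 against RDY234 edgeR called 0 members and 0% of all genes, and DESeq2 called 0. Lower at an unadjusted edgeR p under 0.05 were 3 members and 0.957% of all genes. RDY236 and RDY235 were also set against each other. There edgeR called 0 members and 0% of all genes, and DESeq2 called 0. Lower in RDY236 at an unadjusted edgeR p under 0.05 were 10 members and 14.1% of all genes. The medians were −0.39 for members and −0.40 for all genes.

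Levels under IAA were compared directly with RDY234 for the strains of the same library series. In RDY236 4 members were lowered (1.45% of all genes called), IMD2, RRG1, NPR3 and TSC11. NPR3 belongs to a complex that restrains TORC1, and TSC11 to TORC2. RRG1 had 45.4, 71.2 and 74.0 normalised T>C reads in RDY236 under IAA, against 182.0, 129.7 and 137.8 in RDY234 under IAA (log2 −1.23 ± 0.29 SE, edgeR adjusted p = 0.00578). NPR3 had 107.0, 142.4 and 105.8 in RDY236, against 242.0, 272.1 and 219.8 in RDY234 (log2 −1.03 ± 0.23 SE, edgeR adjusted p = 0.00432). The groups did not overlap in either gene. The count was 2 without RDY234 IAA replicate A or B and 1 without RDY236 IAA replicate A. In RDY235 1 member was lowered (0.0391% of all genes called), IMD2, which DESeq2 did not call. In RDY251 all 100 were lowered (99.2% of all genes called).

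RDY251 differed from the other strains in its DMSO libraries too. The median member level there was 57.5 to 73.5 normalised T>C reads, against 125.7 to 148.2 in RDY234 DMSO, a median log2 difference of −1.09 for members and −0.89 for eligible genes. For the other variants of that series the DMSO levels stood nearer to RDY234, at a member median of −0.01 in RDY237, −0.08 in RDY235 and 0.22 in RDY236, against eligible medians of 0.10, 0.08 and 0.36. Against RDY73 DMSO the median was −0.11 in RDY247 and 0.40 in RDY249, against −0.05 and 0.43 for eligible genes.

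Because most genes were lowered under the spike-in scaling in RDY73, RDY251, RDY249 and RDY247, the members were next set against the other genes, with trimmed mean of M-values (TMM) scaling of the T>C counts, which removes the change common to most genes. On this scale a gene counts as lowered at an adjusted p under 0.05 and at least 1.5-fold, and the median over all genes was −0.35 in RDY73, −0.13 in RDY251 and 0.00 in RDY249 and RDY247. The edgeR test called 34 members lowered relative to the other genes in RDY73 (8.89% of all genes), 17 in RDY251 (3.15%), 19 in RDY249 (1.95%) and 26 in RDY247 (3.07%). The member medians were −1.22, −0.82, −0.31 and −0.43 in the same order of strains. In RDY236, where 0.215% of all genes were called, edgeR called 0 members. In RDY235 and RDY234 it called 0 members and 0% of all genes, and DESeq2 called 0 in these 3 strains. At an unadjusted edgeR p under 0.05, 12 members were lower in RDY236, 9 in RDY235 and 2 in RDY234. The shares of all genes were 5.18%, 1.76% and 1.075%. DESeq2 with its own size factors called 18 in RDY73, 13 in RDY251, 23 in RDY249 and 35 in RDY247. The RDY73 count was 20 without IAA replicate B and 21 without IAA replicate C, the RDY249 count 10 without DMSO replicate A and 11 without IAA replicate A, and the RDY251 count 10 without IAA replicate A.

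Only some members were lowered beyond the rest in more than 1 strain. Over RDY73, RDY251, RDY249 and RDY247, 48 members were called relative to the other genes in none, 27 in 1, 12 in 2, 7 in 3 and 6 in all 4, and the shares of eligible genes were 85.3%, 12.03%, 1.80%, 0.61% and 0.237%. These 4 comparisons share no libraries with each other or with RDY237. The 6 were HO, SYC1, PUS9, RNH70, BTN2 and HSP82, and 7 eligible genes in all had such calls. PUS9 and BTN2 kept the call in all 4 strains under each setting tried. HSP82 lost it in RDY73 without IAA replicate B (relative log2 −0.57), and HO lost it in RDY249 without DMSO replicate A or B or IAA replicate B or C (−0.67 to −0.46). SYC1 and RNH70 each lost it in all 4 strains when some single library was left out, in 2 to 5 of the 12 or 13 settings a strain for SYC1 and 1 to 5 of the 13 or 14 for RNH70. RNH70 encodes an exonuclease that trims 5S rRNA and tRNA. The 7 members called in 3 strains were IMD2, MVB12 (endosomal sorting), RBL2 (tubulin folding), THO1 (RNA binding), YGK1, SEN15 (tRNA splicing endonuclease) and CGR1. By rank, 12 of the 20 eligible genes that lay in the lowest 10% in all 4 strains were members, RRG1, IMD2, SYC1, HO, MVB12, PUS9, YKU80, MCO12, THO1, RNH70, YGK1 and LOT5, whereas 17 members lay in it in none, SNP1, SWS2, MRPL37, ROQ1, PEP1 and SPC105 among them.

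**Figure D3:**
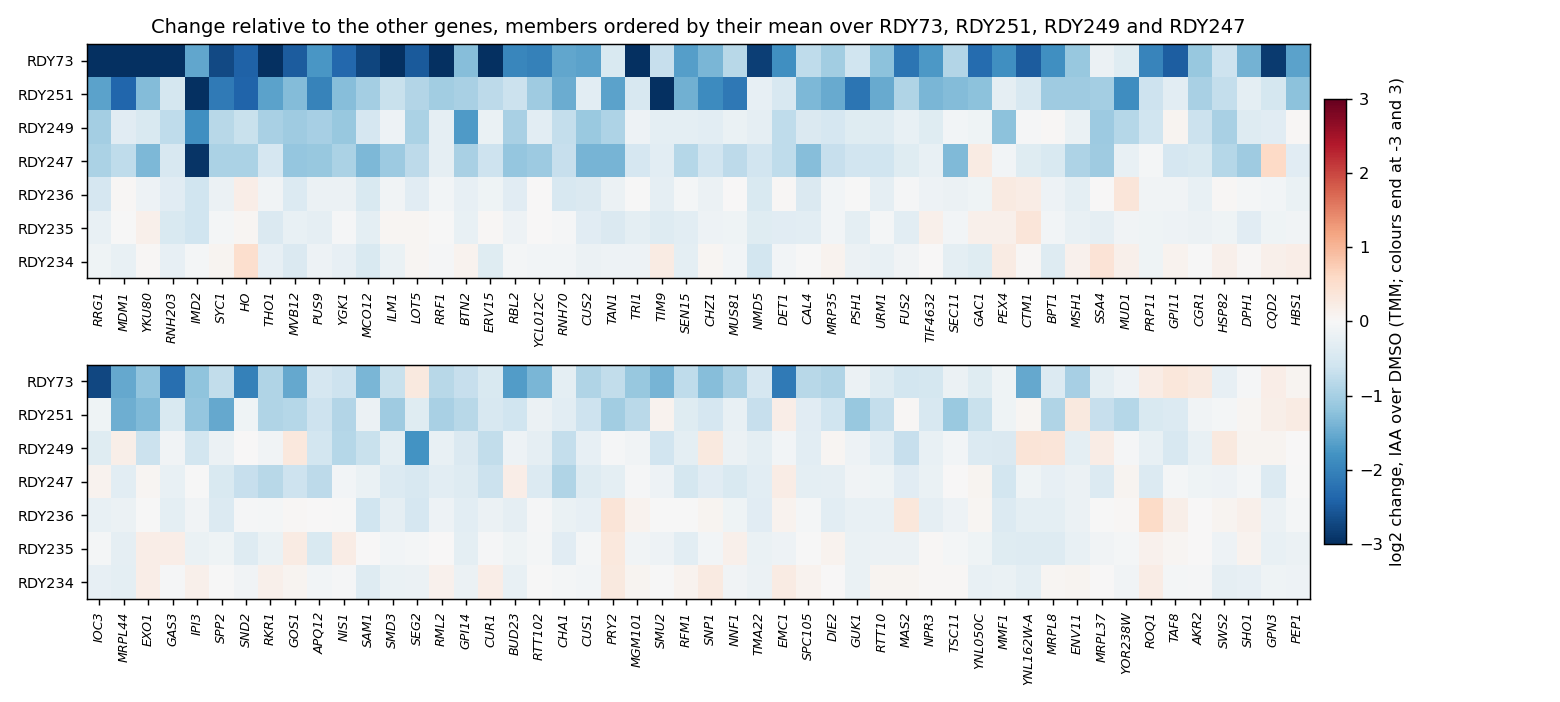
Log2 change between IAA and DMSO relative to the other genes (TMM scaling, colour) for the 100 members (columns, ordered by their mean over RDY73, RDY251, RDY249 and RDY247) in 7 strains (rows). Colours end at −3 and 3. At or past the blue end lie 9 members in RDY73, of which RRG1, MDM1, YKU80 and RNH203 had 0 T>C reads there under IAA and ILM1, RRF1, TRI1, THO1 and ERV15 stand at −3.64 to −3.13, and TIM9 (−3.02) and IMD2 (−3.0) in RDY251, while the RDY236, RDY235 and RDY234 rows stay pale.

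IMD2 was the member with the lowest relative change in RDY247, RDY249, RDY236 and RDY235, and the second lowest in RDY251. In RDY247 it had 10.7, 20.8 and 2.32 normalised T>C reads under IAA, against 234.8, 138.4 and 226.4 under DMSO (spike-in scaled log2 −4.24 ± 0.36 SE, relative −2.95, edgeR adjusted p = 8.36e-10 for the relative change). In RDY251, on very few counted T>C reads under IAA, it had 0.989, 2.87 and 1.05 under IAA, against 130.1, 126.4 and 126.9 under DMSO (spike-in scaled log2 −6.22 ± 0.43 SE, relative −3.0 with edgeR adjusted p = 3.37e-05). In RDY249 it had 28.5, 15.0 and 19.2 under IAA, against 266.7, 251.9 and 266.9 under DMSO (relative log2 −1.85 ± 0.30 SE, edgeR adjusted p = 1.74e-06). The groups did not overlap in these strains or in RDY73, where the relative change of −1.55 ± 0.61 (SE, edgeR adjusted p = 0.0614) was not called.

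The single mutants differed from RDY234 in IMD2 under IAA. IMD2 had 71.4, 84.2 and 74.0 normalised T>C reads in RDY236 and 87.8, 91.4 and 85.9 in RDY235 under IAA, against 193.2, 231.4 and 207.6 in RDY234 under IAA. Against RDY234 the log2 difference was −1.44 ± 0.25 in RDY236 (SE, edgeR adjusted p = 4.065e-05) and −1.24 ± 0.24 in RDY235 (SE, edgeR adjusted p = 0.00148). Under DMSO the RDY235 libraries, at 145.1, 136.5 and 157.4, also stood below those of RDY234 at 187.9, 259.2 and 220.0. The test of the response of RDY236 against that of RDY234 gave −1.08 ± 0.34 (SE, edgeR adjusted p = 0.0995), without a call. For the response of RDY235 it gave −0.69 ± 0.33 (SE, edgeR adjusted p = 0.9997), also without a call. DESeq2 did not call the difference of RDY235 from RDY234 under IAA. IMD2 belongs to a family of near-identical genes, and 0.946% of its reads were multimapped, so its values are uncertain in their share among paralogs.

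HSP82 and BTN2 were lowered beyond the other genes in RDY73, RDY251, RDY249 and RDY247. HSP82 had 1635, 1404 and 1494 normalised T>C reads in RDY249 under IAA, against 12504, 10241 and 9117 under DMSO (relative log2 −0.97 ± 0.14 SE, edgeR adjusted p = 1.36e-07). In RDY247 it had 1801, 1755 and 2171 under IAA, against 8912, 7381 and 8188 under DMSO (relative log2 −0.85 ± 0.14 SE, edgeR adjusted p = 3.75e-06). Under DMSO the HSP82 level in the later library series, with RDY73 at 7168 to 7683, lay above all DMSO libraries of the earlier series, of which the highest was RDY236 at 6232. Relative changes of HSP82 in RDY251 and RDY73 were −0.71 and −0.63, the RDY73 value at the edge of the 1.5-fold limit and not called without IAA replicate B. HSP82 has a near-identical paralog, HSC82, and 0.252% of its reads were multimapped.

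BTN2 had 341.5, 416.7 and 331.6 normalised T>C reads in RDY249 under IAA, against 5104, 4052 and 3647 under DMSO (relative log2 −1.69 ± 0.18 SE, edgeR adjusted p = 1.44e-11). In RDY251 it had 91.0, 96.1 and 145.1 under IAA, against 1832, 2566 and 2496 under DMSO (relative log2 −0.97 ± 0.19 SE, edgeR adjusted p = 7.13e-05). In RDY73 it had 34.1, 25.5 and 15.3 under IAA, against 2519, 2062 and 2474 under DMSO. SSA4 was called in RDY249 (relative log2 −1.09 ± 0.35 SE, edgeR adjusted p = 0.0322) and RDY247 (−1.06 ± 0.33 SE, edgeR adjusted p = 0.0227), and had −1.03 in RDY251 and −0.17 in RDY73 without a call. For SSA4, HSP82, BTN2 and CUR1 in RDY234, DMSO replicate B was the lowest of the 6 libraries, with 83.2 for SSA4 against 170.4 to 249.5 in the others.

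HO was lowered beyond the other genes in these 4 strains, by −0.66 and with the call lost in 4 settings in RDY249, and had no call in RDY236, RDY235 or RDY234. On very few counted reads under IAA, it had 1.98, 1.44 and 1.05 normalised T>C reads in RDY251 under IAA, against 65.0, 99.9 and 86.8 under DMSO (relative log2 −2.40 ± 0.56 SE, edgeR adjusted p = 0.00114). In RDY247 it had 51.9, 44.6 and 67.3 under IAA, against 246.6, 235.4 and 285.5 under DMSO (relative log2 −0.96 ± 0.21 SE, edgeR adjusted p = 0.000911). In RDY234 all 3 IAA libraries, at 317.0, 325.5 and 310.5, lay above the DMSO libraries at 226.6, 234.0 and 223.8, with a relative log2 change of 0.50 ± 0.16 (SE, edgeR adjusted p = 0.848). PUS9 had 6.92, 4.30 and 8.41 in RDY251 under IAA, against 263.2, 285.6 and 318.9 under DMSO (relative log2 −2.02 ± 0.31 SE, edgeR adjusted p = 3.79e-07).

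SEG2 stood among the lowest members in 1 strain and among the highest in another. It was called in RDY249, with 15.5, 8.55 and 6.98 normalised T>C reads under IAA against 121.2, 123.9 and 119.5 under DMSO and a relative log2 change of −1.78. In RDY73 it had 0, 1.27 and 4.02 under IAA against 43.4, 88.0 and 64.2 under DMSO, a relative log2 change of 0.30 that was not called and was among the 3 highest of the members there. The others among the highest were TAF8, a TFIID subunit, at 0.33 and AKR2, related to a palmitoyl transferase, at 0.26. In RDY247 the highest were CQD2 at 0.60, GAC1, which directs a protein phosphatase to glycogen, at 0.24 and the ER membrane complex gene EMC1 at 0.21. In RDY251 they were ENV11 at 0.30, the sorting receptor gene PEP1 at 0.24 and EMC1 at 0.21, and in RDY249 YNL162W-A at 0.40, MRPL8 at 0.36 and the v-SNARE gene GOS1 at 0.32. None of these passed the test.

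The lowest relative changes in RDY247 after IMD2 were those of CUS2, which helps the U2 snRNP fold, and TAN1, both at −1.39 and both called. In RDY251 TIM9, a chaperone of mitochondrial import, had only 2 T>C reads over the 3 IAA libraries, against 134 under DMSO. Its level was 86.9 times lower (95% counting interval 23.6 to 724.6), and its interval shares bases with URA3, a marker gene of these strains. In RDY73 4 members had 0 T>C reads under IAA, RRG1, MDM1, YKU80 and RNH203. Against a floor of 3 reads over the group, RRG1 was at least 116.5-fold lower, MDM1 at least 109.4-fold, YKU80, a subunit of the Ku heterodimer, at least 80.9-fold and RNH203, a subunit of RNase H2, at least 77.2-fold. A further 32 members had 1 to 3 reads there, such as SYC1 with 2, at 265.6 times lower (95% counting interval 72.8 to 2204). With the 4 genes at their bound the RDY73 median was −6.41. Such intervals and floors cover counting error only.

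Relative to the other genes the single mutants and RDY234 showed small changes without a call. In RDY236 the lowest after IMD2 (−0.60) were SAM1 at −0.60 and RRG1 at −0.51, and the highest were ROQ1 at 0.57, PRY2, a secreted sterol-binding protein, at 0.38 and MUD1, of the U1 snRNP, at 0.35. In RDY235 the lowest after IMD2 (−0.60) were RNH203 at −0.47 and APQ12, of the nuclear envelope, at −0.45, and the highest were CTM1, a methyltransferase of cytochrome c, at 0.37, PRY2 at 0.32 and GOS1 at 0.26. In RDY234 the lowest were NMD5 at −0.56, MCO12 at −0.45 and MVB12 at −0.42, and the highest were HO at 0.50, SSA4 at 0.41 and PRY2 at 0.30. The edgeR adjusted p was over 0.05 for each.

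**Figure D4:**
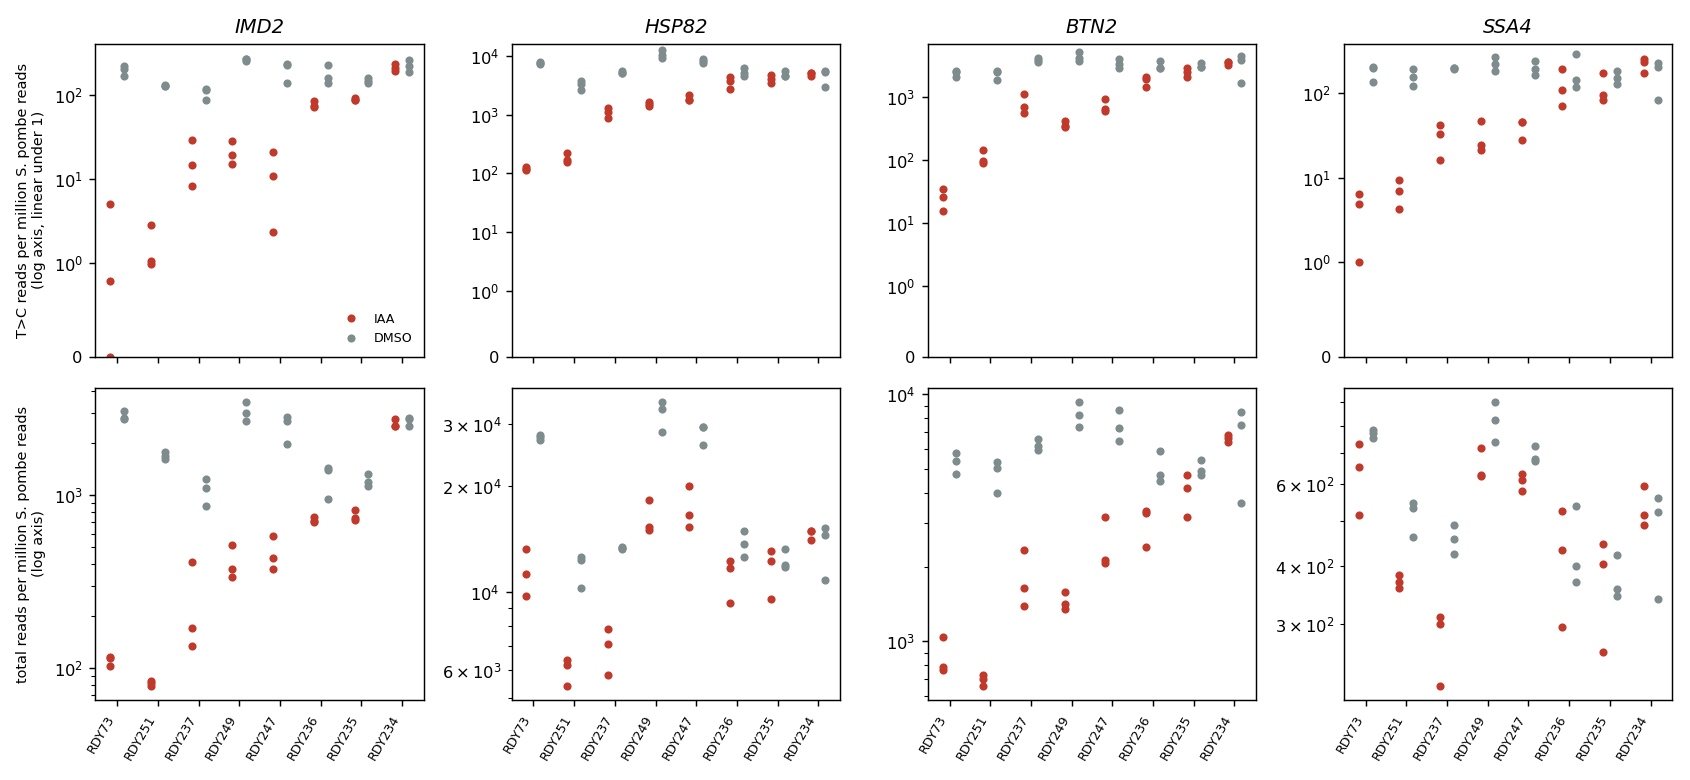
T>C reads (upper row, log axis with a linear part under 1) and total reads (lower row, log axis) per 1000000 S. pombe reads of IMD2, HSP82, BTN2 and SSA4 in each library of the 8 strains, IAA left of DMSO. Total reads of SSA4 stay at 514.1 to 729.2 in RDY73 under IAA, near the 752.1 to 783.4 under DMSO, while its T>C reads stand at 1.00 to 6.37 against 134.9 to 203.3.

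Total reads count the RNA pool, labelled or not, and were not part of the rule. The edgeR test on spike-in scaled total reads of 5907 genes called 97 members lowered at least 2-fold in RDY73 (84.8% of all genes), 97 in RDY251 (76.5%), 54 in RDY249 (20.1%) and 40 in RDY247 (13.7%). Among other eligible genes with under 300 T>C reads the shares were 93.1%, 86.2%, 15.5% and 7.70%, so the RDY73 count lies close to that background. The median log2 change of the members was −3.22 in RDY73, −2.23 in RDY251, −1.04 in RDY249 and −0.91 in RDY247, against −2.25, −1.55, −0.69 and −0.53 over all genes. DESeq2 also counted 97, 97, 54 and 40. The RDY249 count was 29 without DMSO replicate A. In RDY237 the medians were −1.21 for members and −0.76 for all genes, given as a description.

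In the single mutants and RDY234 total reads gave no call among the members. Both edgeR and DESeq2 called 0 members in RDY236, RDY235 and RDY234, where edgeR called 0.83%, 0.0169% and 0.0169% of all genes. Lower at an unadjusted edgeR p under 0.05 were 74, 25 and 3 members, against 45.05%, 6.755% and 1.405% of all genes. The member medians were −0.45, −0.23 and −0.11, against −0.32, −0.12 and −0.06 over all genes. In RDY236 58 members had an adjusted p under 0.05 with a decrease of any size, and 30.7% of all genes did. RRG1 stood lowest there at −0.98 ± 0.22 (SE, edgeR adjusted p = 0.00215), with 137.9, 131.7 and 142.8 normalised total reads under IAA against 248.7, 270.9 and 308.1 under DMSO.

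The pool changed less than the newly made RNA in the set at large, with member medians in RDY73 of −3.22 and −6.44. In a few members the pool changed little. SSA4 had 651.9, 729.2 and 514.1 normalised total reads in RDY73 under IAA, against 752.1, 770.1 and 783.4 under DMSO (log2 −0.35 ± 0.17 SE, edgeR adjusted p = 0.0471), while its T>C reads gave −5.46 ± 0.42. In RDY249 it had 716.6, 626.1 and 623.0 under IAA, against 738.1, 900.6 and 823.5 under DMSO (log2 −0.30 ± 0.17 SE, edgeR adjusted p = 0.103). The members without a 2-fold call in RDY73 were SSA4, CUS2 and ROQ1, and those in RDY251 SSA4, CUS2 and HSP82. CUS2 had 140.4, 142.0 and 166.2 total reads in RDY251 under IAA, against 190.6, 240.1 and 198.7 under DMSO (log2 −0.49 ± 0.15 SE, edgeR adjusted p = 0.0028).

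HSP82 total reads stood at 13256, 11218 and 9733 normalised reads in RDY73 under IAA, against 27909, 27611 and 27083 under DMSO (log2 −1.33 ± 0.14 SE, edgeR adjusted p = 4.03e-13). In RDY249 the mitochondrial ribosomal gene SWS2 and SNP1, of the U1 snRNP, showed the smallest changes of the pool. SNP1 had 3697, 2271 and 2867 total reads under IAA, against 3706, 2339 and 3024 under DMSO (log2 −0.03 ± 0.19 SE, edgeR adjusted p = 0.895). The SNP1 groups overlapped, as did those of SWS2 (log2 −0.02 ± 0.15 SE, edgeR adjusted p = 0.916).

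Other members lost most of their pool. IMD2 had 84.0, 78.9 and 82.0 normalised total reads in RDY251 under IAA, against 1794, 1681 and 1625 under DMSO (log2 −4.37 ± 0.24 SE, edgeR adjusted p = 1.67e-21). TAN1 had 64.2, 48.4 and 26.6 in RDY73 under IAA, against 1701, 1339 and 1622 under DMSO (log2 −5.15 ± 0.22 SE, edgeR adjusted p = 4.51e-27), the lowest total log2 change of the set in that strain. BTN2 had 1415, 1577 and 1354 in RDY249 under IAA, against 9315, 8206 and 7383 under DMSO (log2 −2.51 ± 0.20 SE, edgeR adjusted p = 3.1e-14). For all 3 genes the IAA and DMSO libraries were far apart.

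**Figure D5:**
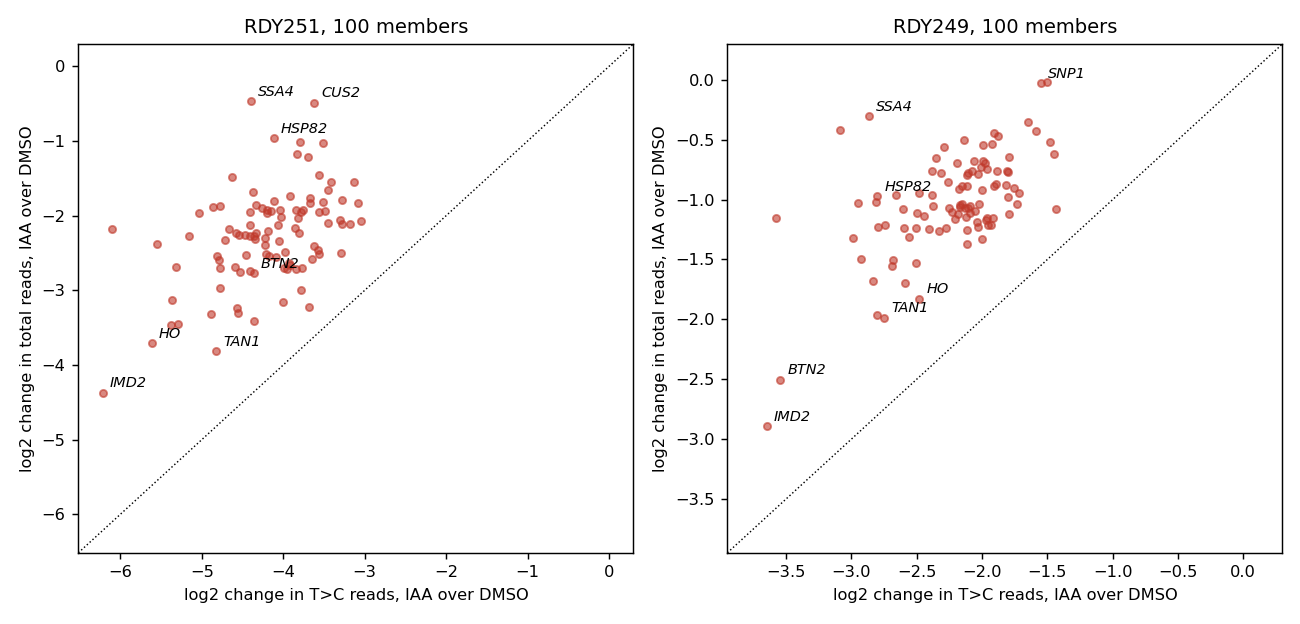
Log2 change between IAA and DMSO in T>C reads (horizontal axis) and in total reads (vertical axis) of the 100 members in RDY251 (left) and RDY249 (right), 1 point a gene. The dotted line marks equal changes. All points lie above it, with SSA4 at −0.47 in total and −4.40 in T>C reads in RDY251 and IMD2 at −4.37 and −6.22.

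The total reads of members did not overlap between IAA and DMSO for 100 in RDY73, 100 in RDY251, 94 in RDY247, 90 in RDY249, 84 in RDY236, 19 in RDY235 and 18 in RDY234. Among other eligible genes the shares were 96.6%, 95.7%, 57.7%, 71.2%, 67.6%, 12.5% and 8.95% in the same order of strains.

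By the words of their RefSeq annotation, grouped after the members were seen, the set spread over many functions. Members annotated for tRNA numbered 8 (RRG1, TAN1, HBS1, PUS9, RTT10, URM1, RNH70 and SEN15), and the words were found in 4.44% of eligible genes. Their median change relative to the other genes was −1.59 in RDY73, −1.49 in RDY251, −0.55 in RDY249 and −0.76 in RDY247, with 5, 4, 4 and 4 of them called, against −0.40, −0.19, −0.10 and −0.06 for all eligible genes with the word. TAN1 had the largest relative fold of these genes in RDY247, with 10.7, 23.8 and 23.2 normalised T>C reads under IAA against 104.3, 127.6 and 108.1 under DMSO (relative log2 −1.39 ± 0.32 SE, edgeR adjusted p = 0.00117). SEN15 was called in RDY73, RDY251 and RDY247 with −1.66, −1.43 and −0.85, and had −0.30 without a call in RDY249.

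Chaperone and heat shock words gave 6 members (SSA4, GAC1, BTN2, HSP82, CUR1 and CHZ1), against 3.66% of eligible genes. Their median relative change was −0.96 in RDY73, −1.001 in RDY251, −0.85 in RDY249 and −0.75 in RDY247, with 3, 3, 4 and 4 called, against −0.25, 0.00, −0.09 and −0.02 for eligible genes with the words. CUR1 had 119.0, 128.2 and 104.7 normalised T>C reads in RDY249 under IAA, against 926.6, 631.9 and 569.3 under DMSO (relative log2 −0.74 ± 0.22 SE, edgeR adjusted p = 0.0167). CHZ1, a histone chaperone for the variant H2A.Z, was called in RDY73 (−1.37) and RDY251 (−1.89).

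Splicing words gave 7 members (MUD1, CUS2, SPP2, CUS1, SNP1, SMD3 and PRP11, against 1.97% of eligible genes) and mitochondrial ribosomal proteins 6 (MRPL44, MRP35, MRPL8, RML2, MRPL37 and SWS2, against 2.03%). In both groups few members passed the relative test. Among the splicing genes the calls were SPP2 in RDY251 (−1.54) and CUS2 in RDY249 (−1.11) and RDY247 (−1.39), and among the mitochondrial ribosomal genes MRP35 in RDY247 (−0.70). The group medians in RDY249 were −0.28 for the splicing genes and 0.20 for the mitochondrial ribosomal genes, against −0.10 and 0.05 for eligible genes with the words. Mitochondrial words in general were found in 20 members and 13.1% of eligible genes, and ER words in 14 members and 8.51%.

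Of 30 gene lists of yeast pathways, complexes and regulons with 987 symbols, only 10 held a member, and none held over 2. The lists are not complete, as the members CGR1 (ribosome biogenesis), TAN1 and PUS9 (tRNA modification) stood on none of them. The M/G1 list held HO and the bud neck gene NIS1, and of its 21 tested genes 1 was lower and 0 higher relative to the other genes in RDY73, RDY249 and RDY247, and 3 lower and 1 higher in RDY251. The general stress list held SSA4, and of its 24 tested genes 2 were lower and 16 higher in RDY247 and in RDY249, 2 lower and 9 higher in RDY251, and 0 lower and 13 higher in RDY73. The purine list held IMD2, and of its 21 tested genes 3 were lower in RDY247, 2 in RDY251, 1 in RDY249 and 0 in RDY73, with 0 higher. The ribosome biogenesis list, with 113 genes tested, held BUD23, an rRNA methyltransferase, and left out CGR1. Of its tested genes 18 were lower and 3 higher in RDY73, 7 and 1 in RDY251, 1 and 0 in RDY249 and 2 and 1 in RDY247.

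The remaining members on lists were FUS2 (cell fusion in mating), GAS3 and PRY2 (cell wall and secreted proteins), TIF4632 (a translation initiation factor eIF4G), TAF8 and SAM1. FUS2 and GAS3 were called in RDY73, at −2.20 and −2.26 relative to the other genes, and were not called in RDY251, RDY249 or RDY247. TIF4632, TAF8, PRY2, SAM1, NIS1 and BUD23 had no relative call in any strain. Of the cell wall list 13 of 40 tested genes were higher in RDY73, 8 in RDY251, 11 in RDY249 and 7 in RDY247, and 1 was lower in RDY73 and 0 in the others.

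In what the rule did not use, the members were shorter than other eligible genes. Their coding length had a median of 916.5 bases (lowest 219, highest 4740), against 1284 for other eligible genes and 1358 for those with under 300 T>C reads. The T content of the counted interval was 28.1% for members and 28.7% for other eligible genes. The share of reads with T>C in RDY234 DMSO had a median of 23.7% for members, with a range of 3.58% to 53.5%, against 21.0% for other eligible genes and 24.0% for those with under 300 reads. An intron was present in 5 members and 5.90% of other eligible genes. Each counted interval is a gene extended downstream by 250 bases, and 25 members shared such bases with another interval, against 16.2% of other eligible genes. Besides RRG1 with RPS13 and TIM9 with URA3 these were HSP82 with CIN2 and TAN1 with SEC15, and GPI14 with TMA22 and FUS2 with TRI1 were pairs of members.

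Known promoter elements were counted in the members and in all genes. In the 300 bases before the start codon, on both strands, TATAAA was found in 43 members, against 48.2% of 6000 promoters and 45.4% of those of eligible genes, GATGAG (the PAC element) in 22 members, against 19.1% and 22.0%, and AAAATTTT (RRPE) in 12 members, against 9.43% and 14.6%. The stress element AGGGG was found in 14 members, against 22.2% of all promoters and 20.1% of eligible ones, and TTACCCG (Reb1) in 8, against 7.90% and 11.98%. The SBF element CGCGAAA was found in 7, against 3.95% and 4.41%. TGAAACA (Ste12) was in 9, GTAAACA (forkhead) and TGACTC (Gcn4) in 6 each, ACGCGT (MBF) in 3 and CACGTG (Cbf1 and Pho4) in 2, within 2 percentage points of the share of all promoters in each case. None of these motifs contains another, and a match is a description of these letters only.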

How the data were processed

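The authors trimmed 3′ mRNA reads with fastp 0.23.2 and BBDuk, aligned them to the S. cerevisiae R64 and S. pombe ASM294v2 genomes and counted reads per gene with SLAM-DUNK 0.4.3, the version in the file headers. The deposited tables hold raw counts per gene interval of all reads and of T>C reads, for each species, in 48 libraries. The labels give 6 min of 4-thiouracil labelling and the methods another time, and the methods give 3 biological replicates per group. Samples were grouped by their labels.

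From these counts, size factors were the median of ratios of S. pombe total reads. One edgeR 4.0.16 quasi-likelihood model (R 4.3.3, 16 groups, genes with a mean of at least 10 reads) was fitted to T>C reads, and one to total reads, with Benjamini-Hochberg adjustment over all genes tested. Levels in the text are reads per 1000000 S. pombe reads. For changes relative to the other genes, TMM factors of the S. cerevisiae T>C counts replaced the spike-in. A standard error is the log2 change divided by the square root of its F statistic. DESeq2 1.42.0, other scalings, filters and subsets of samples and each library left out in turn were alternatives, and the model was tested on simulated data. Promoters and coding lengths came from RefSeq (R64), in which 6462 of 6465 names matched.

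The members, gene lists and motifs were chosen with earlier results of these data known. Named were the 10 members with the lowest ratio, the 5 genes on each side of the boundary, the 5 members with most reads, the 3 lowest and highest relative changes per strain, members on a list and members called in RDY235 or RDY236. Genes named for other reasons (the total-read extremes and the members of annotation groups) were chosen after their values were seen. No pair of replicate libraries agreed within sampling noise, with 0 of 48 pairs at a chi-square p over 0.05. The correlation of IAA and DMSO deviations of the same letter was over 0.1 in 8 of 24 pairs, and in all 3 pairs of a strain only in RDY249 (0.112 to 0.167). RDY249 was therefore also fitted with the letter as a block, an alternative chosen after seeing the data, and the letters of the other strains were not treated as pairs. The counts of 1 searched promoter motif are not reported here.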

Additional observations from a re-analysis of the deposited data

Results flagged for a closer look

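Beside RDY234, which carried the same tagged proteins and an unmodified BDF1, the response of the members to IAA was tested to differ in 4 strains. Lower responses than in RDY234, by edgeR's adjusted p and at least 2-fold, were found for 100 of 100 members in RDY73, 100 in RDY251, 100 in RDY249 and 95 in RDY247, with 99.9%, 99%, 92.8% and 69.8% of all genes called in the same order of strains. The median difference in log2 change was −6.35 for members and −5.52 for all genes in RDY73, −4.03 and −3.42 in RDY251, −2.05 and −1.75 in RDY249, and −1.64 and −1.25 in RDY247. These 4 tests share the RDY234 libraries, and for RDY73, RDY249 and RDY247 the library series and the strain cannot be told apart. RDY251 lies in the series of RDY234.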

How the results depend on the processing

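Of 510 alternative settings of 32 counts of members, 453 stayed within 1.5-fold of the reported count, and no single-gene change reversed its sign among the 360 settings tried for 24 values, of which 22 lost their call. Over all called members and settings the sign of the change in T>C reads turned in 6 of 1447 cases in RDY73, 8 of 1447 in RDY251, 15 of 1547 in RDY249 and 8 of 1433 in RDY247. All of these cases lay under TMM scaling, which replaces the spike-in. Under TMM 94 of the 100 members had a decrease in RDY73, 92 in RDY251, 85 in RDY249 and 91 in RDY247. The cause of the changes below was not tested, except that a mean of at least 50 reads left 47 members to test.

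TMM scaling with the 2-fold limit, which removes the change common to most genes, lowered the T>C counts to 33 in RDY73, 14 in RDY251, 9 in RDY249, 14 in RDY247 and 0 in RDY236. The responses against RDY234 became 23 in RDY73, 11 in RDY251, 6 in RDY249 and 9 in RDY247, the RDY251 count under IAA 34 and the RDY236 count under IAA 2. In total reads TMM gave 49 in RDY73, 29 in RDY251, 5 in RDY249 and 9 in RDY247. With a mean of at least 50 reads all 47 tested members were called in RDY73, RDY251, RDY249 and RDY247, in the responses of RDY73, RDY251 and RDY249 and in RDY251 under IAA, 46 in the response of RDY247, 4 in RDY236, 2 in RDY236 under IAA, and 17 in RDY73 relative to the other genes. Scaling by summed S. pombe T>C reads gave 2 in RDY236 under IAA and 25 in RDY249 total reads, and scaling by summed S. pombe total reads gave 2 in the RDY236 response and 1 in RDY236 total reads. DESeq2 gave 18 in RDY73 relative to the other genes and 0 in RDY235 under IAA. A fit of only the groups compared gave 1 in RDY235 relative to the other genes.

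Leaving out 1 library gave 4 to 20 in RDY236 (5 without DMSO B, 4 without IAA A, 20 without IAA C), 0 to 4 in the RDY236 response (4 without RDY236 DMSO A, 1 without DMSO C) and 1 to 6 in RDY236 under IAA (2 without RDY234 IAA A or B, 1 without RDY236 IAA A). Relative to the other genes it gave 20 to 33 in RDY73 (20 without IAA B, 21 without IAA C), 10 to 17 in RDY251 (10 without IAA A), 10 to 19 in RDY249 (10 without DMSO A, 11 without IAA A) and 0 to 1 in RDY236 (1 without DMSO A, DMSO C or IAA A). In total reads it gave 29 to 71 in RDY249 (29 without DMSO A) and 0 to 1 in RDY236 (1 without DMSO A, IAA A or IAA C). Of the 100 members, 34 stayed with a minimum of 75 T>C reads and 36 with total reads in place of T>C reads. With a minimum of 300, 19 stayed, which are all the members that were still eligible. Leaving out 1 RDY237 library kept 67 to 75.

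With the replicate letter as a block 10 members were called in RDY236 in place of 9, 33 in RDY73, 27 in RDY247, 19 in RDY249 and 17 in RDY251 relative to the other genes, and the block moved no count by over 1.5-fold. In RDY249, where each same-letter correlation was over 0.1, its own block left 100 members called in T>C reads. It left 19 relative to the other genes and 53 of 54 in total reads (CUS2 was lost). Over all strains 15 of 24 IAA libraries correlated best with the DMSO library of their own letter, among them all 3 in RDY73, RDY249 and RDY251. The library numbers also alternate DMSO and IAA within a letter. Both are hints of pairing, and whether the cultures were paired was not stated. Relative to the other genes 8 of 34 calls in RDY73, 5 of 17 in RDY251, 7 of 19 in RDY249 and 12 of 26 in RDY247 were kept under every setting other than the mean of at least 50 reads.

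Depth limits the IAA values most in RDY73, where the median member had 5 T>C reads over 3 libraries and 81 members had under 10, and in RDY251, with a median of 10 and 46 members under 10. The p-values rest on a spread between cultures that was estimated over all 16 groups of 3 libraries and moderated across genes. They do not measure the spread within the groups compared alone.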
